A study of Mus musculus with 2 samples.

Results

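The genes described here make, read, anchor and break down cyclic AMP (cAMP) in the hippocampus of 10-day-old mice. They were chosen by gene symbol alone. The choice took the adenylyl cyclases (Adcy followed by a number), the catalytic and regulatory subunits of protein kinase A (Prkaca, Prkacb, Prkar1a, Prkar1b, Prkar2a and Prkar2b), the phosphodiesterases (Pde, a number and a letter from a to d) and the A-kinase anchoring proteins (Akap followed by a number). This gave 52 of 55536 annotated genes, all protein-coding. They comprise 10 cyclases, 2 catalytic and 4 regulatory PKA subunits, 14 AKAPs and 22 phosphodiesterases.

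The libraries were made from total RNA of the hippocampus of B6CASTF1/J mice, a first-generation hybrid of an inbred laboratory strain and a wild-derived strain. There was 1 group, with no treatment named, and 2 biological replicates, each started from 300 ng of RNA, labelled male, and carrying a label entry that names 3 males; whether each library pools those animals is not spelled out. The tables held 32035705 expected counts in replicate 1 and 29747193 in replicate 2. Xist had 25 and 30841 counts and the Y-linked Ddx3y 2164 and 0. Replicate 2 therefore shows a female pattern of these genes and goes against its label of male, while replicate 1 goes with its label. Every other difference between the libraries comes together with the difference in these genes.

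Cyclic AMP is the classical second messenger downstream of the stimulatory G protein. Adenylyl cyclases make it from ATP, PKA is released from its regulatory subunits when they bind it, AKAPs hold PKA at particular places in the cell, and phosphodiesterases hydrolyse it. In the hippocampus the calcium-stimulated cyclases link synaptic calcium entry to cAMP, and PKA activity is known for its part in the late phase of long-term potentiation.

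Levels are given in TPM (transcript abundance per library total, which divides by transcript length and so allows genes to be compared) from the alignment-based gene table, as a value for each library or as mean ± SD (n = 2). A gene with a TPM of at least 1 in both libraries was counted as detected. By that measure 44 of the 52 were detected and 36 had a mean TPM of at least 5. Together the 52 held 0.333% and 0.330% of the TPM of all protein-coding genes. Since the tissue is a mixture of cells, fewer cells of a type and less RNA per cell cannot be told apart in any of these values. The labelled tissue was checked against listed markers. The excitatory neuron genes Slc17a7, at 509.2 and 550.6 TPM, Camk2a, at 788 and 882 TPM, and Neurod6, at 117.1 and 117.4 TPM, were detected. So were all 3 dentate granule cell genes (Prox1, Calb1, Dsp), with 89.0 and 91.3 TPM in sum. The libraries differed in markers of other cells. Choroid plexus genes summed to 12.7 and 353.8 TPM, with 3 of 5 detected in both libraries. Most of that was Ttr, at 8.02 and 340.1 TPM, and the other listed genes were at 0.22 to 4.97 TPM. Myelin genes summed to 155.6 and 280.8 TPM and red blood cell genes to 668 and 383 TPM.

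**Figure D1:**
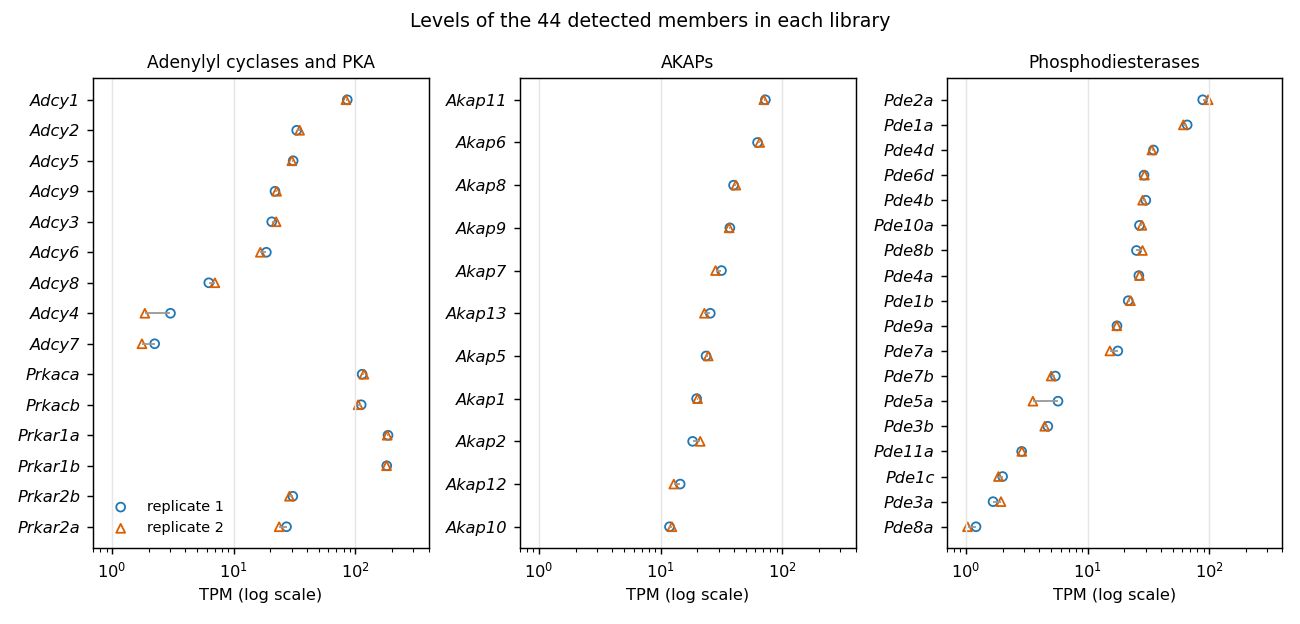
TPM of each detected gene on a log axis, with a circle for replicate 1 and a triangle for replicate 2 joined by a line. Adcy1 stands above the other cyclases, the type I regulatory subunits Prkar1a and Prkar1b, at 180.5 to 185.6 TPM, are the highest of all 44 genes, and Adcy4 and Pde5a show the widest gaps between the libraries.

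Calcium-stimulated cyclases held more of the cyclase RNA than any other class, and most of theirs came from 1 gene. Adcy1, the calmodulin-activated cyclase enriched in neurons (chromosome 11, 7063489 to 7178506, mm10), was measured at 85.8 and 83.7 TPM. It alone made up 38.3% ± 0.495 of the TPM of all 10 cyclases. Adcy3, a calcium-responsive cyclase found in neuronal primary cilia, was at 20.5 and 22.3 TPM. Adcy8, the other cyclase directly activated by calmodulin, was far lower at 6.24 and 7.0 TPM. The class as a whole (Adcy1, Adcy3, Adcy8) summed to 112.6 and 113.1 TPM.

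The calcium-inhibited cyclases were Adcy5, at 30.8 and 30.1 TPM, and Adcy6, at 18.6 and 16.6 TPM. The stimulated class exceeded them 2.35-fold ± 0.102, a log2 ratio of 1.23 ± 0.06, with 1.19 in replicate 1 and 1.28 in replicate 2. Both libraries gave a ratio of the same sign, and their gap was small beside it. The ratio rested on Adcy1. Without it the log2 ratio was -0.78 ± 0.15, so Adcy3 and Adcy8 together lay below Adcy5 and Adcy6.

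Adcy2, a cyclase stimulated by G protein beta-gamma subunits, was the second highest at 33.0 and 34.8 TPM. Adcy9, a widely expressed cyclase with low sensitivity to forskolin, was at 21.9 and 22.5 TPM, and the ranges of Adcy9 and Adcy3 overlapped. The remaining beta-gamma-stimulated cyclases were low, with Adcy7 at 2.24 and 1.76 TPM. As shares of cyclase TPM, the calcium-stimulated class held 50.97% ± 0.381, the calcium-inhibited class 21.7% ± 0.774, the beta-gamma-stimulated class 17.3% ± 0.148 and Adcy9 10.0% ± 0.261. Adcy10, the soluble bicarbonate-sensitive cyclase, was under 1 TPM, with 2 and 0 counts.

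Adcy4 shows how a level per length can move on a few reads. Its TPM was 3.02 and 1.86, while its expected counts were 141 and 128. In the alignment-based transcript table Adcy4-205, a transcript of 256 bases with 3.15 counts, held 0.92 TPM in replicate 1 and 0.03 in replicate 2. The full-length Adcy4-202, with a coding sequence of 3231 bases, stood at 1.64 TPM in both libraries.

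**Figure D2:**
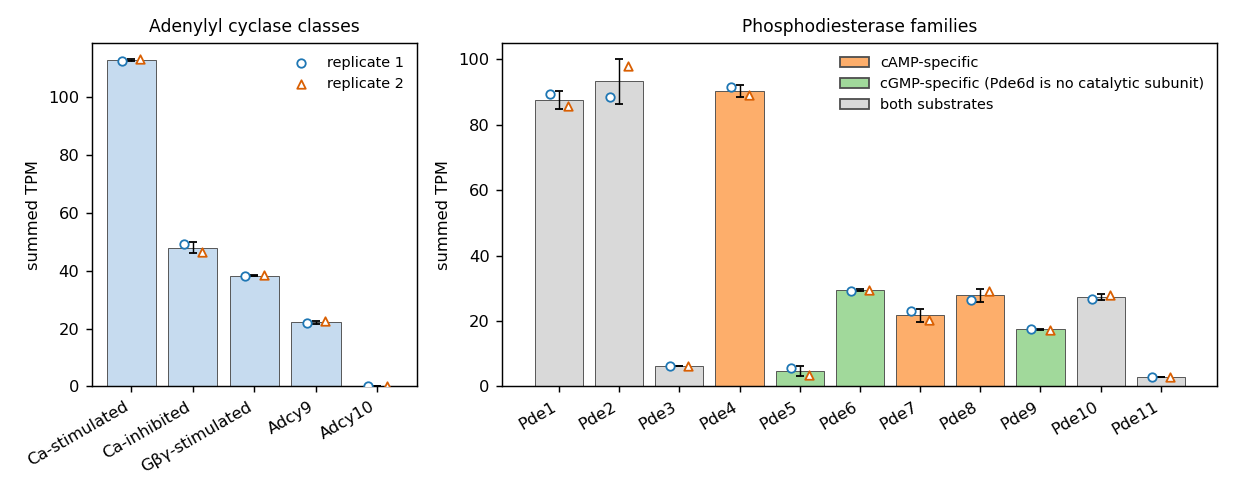
Summed TPM of the cyclase classes (left) and of the 11 phosphodiesterase families (right), with bars for the mean, error bars for the SD (n = 2) and open symbols for each library; bar colour on the right gives the substrate class. Calcium-stimulated cyclases sum to 113 TPM against 48.0 for the inhibited class, and Pde1, Pde2 and Pde4 each lie near 90 TPM.

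PKA holoenzyme pairs a dimer of regulatory subunits with catalytic subunits, and the regulatory type decides much of where the enzyme sits: type II binds most AKAPs tightly, while type I is more often soluble. Both catalytic subunits were abundant and close. Prkaca (chromosome 8, 83972993 to 83996443) was at 113.8 and 117.7 TPM, and Prkacb (chromosome 3, 146729574 to 146812990) at 111.7 and 105.4 TPM. The ranges did not overlap, yet the mean log2 ratio of Prkaca over Prkacb was only 0.09 ± 0.09.

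The regulatory subunits fell into a high and a low pair. Prkar1a, the widely expressed type I subunit (chromosome 11, 109649405 to 109669656), was at 185.6 and 182.9 TPM. Prkar1b, the type I subunit enriched in neurons (chromosome 5, 139017306 to 139150001), was at 181.3 and 180.5 TPM. The type II subunits were much lower. Prkar2b, the neuronal type II subunit, was at 30.6 and 28.7 TPM, and Prkar2a at 27.2 and 23.6 TPM. Type I exceeded type II 6.65-fold ± 0.418, a log2 ratio of type II over type I of -2.73 ± 0.09. Prkar1a held 43.8% ± 0.202 of the regulatory TPM, Prkar1b 43.1% ± 0.515, Prkar2b 7.06% ± 0.211 and Prkar2a 6.04% ± 0.505.

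Regulatory transcripts exceeded catalytic ones 1.87-fold ± 0.0138, at 424.7 and 415.8 TPM against 225.5 and 223.1 TPM. The log2 ratio of catalytic over regulatory was -0.91 ± 0.01. The PKA inhibitor genes Pkia, Pkib and Pkig, whose short proteins block the catalytic subunit, summed to 230.1 and 211 TPM, so that catalytic subunits stood at 1.02-fold ± 0.0548 of them. Most of that was Pkia, at 191.9 and 175.2 TPM.

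The order within each close pair depended on the table. In the FASTQ-based transcript table, summed per gene, Prkar1b stood at 299.6 and 301.6 TPM and Prkar1a at 252.4 and 249.8, the opposite order. Prkacb likewise stood above Prkaca there, at 198.1 and 182.8 TPM against 170.1 and 175.0. Of that Prkacb TPM, 47.0 and 43.4 lay on Prkacb-205, a retained-intron transcript of 919 bases. By alignment Prkacb-205 held 1.17% and 0.664% of the gene. Without this transcript, Prkacb lay below Prkaca in the FASTQ-based table too. The type II pair was reversed as well, with FASTQ-based Prkar2a at 47.8 and 46.7 TPM against 44.8 and 42.1 for Prkar2b. Of that Prkar2a TPM, 30.8% and 34.7% lay on Prkar2a-202, a transcript of 599 bases with an incomplete coding start. Type I remained far above type II by both routes, with a log2 ratio of type II over type I of -2.60 from the FASTQ-based table. Values of the 2 routes are not on the same scale, since protein-coding genes held 491794 and 492303 TPM in the alignment-based table and 791100 and 790426 in the other.

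Prkar1a also differed in which transcript carried its reads. Prkar1a-203, which starts at 109649405, held 94.8% and 90.5% of the gene's TPM in the FASTQ-based table and 17.4% and 18.2% in the alignment-based one. Prkar1a-201, which starts at 109650921, held 0.0104% and 4.95% in the first and 74.6% and 75.7% in the second. Both have a coding sequence of 1143 bases, so the routes differ over the annotated start site of the RNA and not over the length of the protein. The windows that RefSeq gives around the 2 starts are printed because they are what the routes disagree about. Each runs 250 bases before to 50 after a RefSeq start site, on the plus strand of GRCm38.p6. The start of Prkar1a-203 lies 42 bases after the start site of the upstream window, chr11:109649113-109649412, and that of Prkar1a-201 lies 28 bases before that of the downstream window, chr11:109650699-109650998. Capitals mark the cAMP response element TGACGTCA, the palindrome to which CREB binds, which reads the same on both strands.
Prkar1a upstream window: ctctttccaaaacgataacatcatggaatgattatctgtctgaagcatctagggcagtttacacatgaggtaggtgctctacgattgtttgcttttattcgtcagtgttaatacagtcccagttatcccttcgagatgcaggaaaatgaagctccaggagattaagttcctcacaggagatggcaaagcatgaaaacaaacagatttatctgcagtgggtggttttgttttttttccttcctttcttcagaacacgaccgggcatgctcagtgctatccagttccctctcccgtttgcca
Prkar1a downstream window: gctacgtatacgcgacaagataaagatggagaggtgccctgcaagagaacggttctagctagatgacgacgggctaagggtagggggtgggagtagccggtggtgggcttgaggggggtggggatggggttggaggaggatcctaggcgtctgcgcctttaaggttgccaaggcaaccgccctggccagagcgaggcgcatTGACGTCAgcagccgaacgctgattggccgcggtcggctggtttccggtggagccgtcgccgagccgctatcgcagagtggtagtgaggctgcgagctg

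The downstream window holds the element and the upstream one does not. Among 32851 promoter windows of this length in the RefSeq table, 588 hold it, or 1.79%. Counted by gene, 549 of 27025 genes with a window hold it, or 2.03%. Of the 42 members with a window, Prkar1a alone holds it, or 2.38%, and 2 of its overlapping windows contain the same copy. The match is a description of the letters and no evidence of binding in this tissue.

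Phosphodiesterases summed to 407 and 410.0 TPM, 1.85-fold ± 0.0171 the sum of the cyclases. Pde2, Pde4 and Pde1 led and lay close together, at 93.2 ± 6.80, 90.3 ± 1.75 and 87.6 ± 2.72 TPM. Their order differed by library, with Pde4 first in replicate 1, and by route: FASTQ-based TPM gave 146.7 and 139.2 for Pde1, 136.5 and 136.3 for Pde4 and 109.3 and 115.8 for Pde2. Pde2 is a single gene, Pde2a (chromosome 7, 101421691 to 101512827), an enzyme of both cyclic nucleotides that cGMP stimulates. It was at 88.4 and 98.0 TPM, the highest single phosphodiesterase in each library. Transcripts not annotated as protein-coding held 43.2% and 51.5% of that TPM, and 11.3% and 30.2% in the FASTQ-based table. Of Pde1a they held 3.22% and 2.90%, and 4.10% and 11.3% in the FASTQ-based table. The rank of Pde2a is therefore that of all its transcripts and not of its coding RNA alone. Pde1, the calmodulin-activated family, was led by Pde1a at 65.9 and 61.3 TPM, with Pde1b at 21.6 and 22.5 and Pde1c at 2.00 and 1.85 TPM.

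Pde4, the cAMP-specific family inhibited by rolipram, was split among 3 genes. Pde4d (chromosome 13, 108449948 to 109953461) was at 34.8 and 33.8 TPM. Pde4b (chromosome 4, 102087543 to 102607259) was at 30.1 and 28.3 TPM and Pde4a (chromosome 9, 21165714 to 21213248) at 26.4 and 26.7 TPM. They held 38.0% ± 0.0689, 32.4% ± 0.750 and 29.4% ± 0.814 of the family's TPM. Pde4c was under 1 TPM, with 16 and 11 counts.

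The other cAMP-specific families, insensitive to rolipram, were lower. Pde8 summed to 27.9 ± 2.03 TPM, nearly all of it Pde8b at 25.2 and 28.3, while Pde8a was at 1.21 and 1.03 TPM. Pde7 summed to 21.7 ± 2.04 TPM, with Pde7a at 17.7 and 15.2 and Pde7b at 5.43 and 5.02. Together Pde4, Pde7 and Pde8 held 34.2% ± 0.591 of phosphodiesterase TPM. Families that hydrolyse both nucleotides (Pde1, Pde2, Pde3, Pde10, Pde11) held 53.2% ± 0.974, and cGMP-specific families (Pde5, Pde6, Pde9) 12.6% ± 0.383.

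The cGMP class depends on 1 gene that is not an enzyme. Pde6d, at 29.1 and 29.4 TPM, encodes a chaperone of prenylated proteins that was first found with the photoreceptor phosphodiesterase. The photoreceptor catalytic subunits Pde6a, Pde6b and Pde6c were at 0.02 to 0.10 TPM. Without Pde6d the cGMP-specific share was 5.86% ± 0.422 and the cAMP-specific share 36.9% ± 0.633. Pde9a, a cGMP phosphodiesterase of high affinity, was at 17.4 TPM in both libraries.

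Pde10a, an enzyme of both nucleotides best known from medium spiny neurons of the striatum, was at 26.7 and 28.0 TPM. The striatal markers Drd1, Drd2 and Adora2a were each at 1.45 to 2.49 TPM, well below Pde10a and Adcy5. Whether neighbouring tissue added to these genes was not tested. The cGMP-inhibited Pde3b was at 4.71 and 4.44 TPM and Pde3a at 1.67 and 1.94. Pde11a, an enzyme of both nucleotides, was at 2.87 and 2.88 TPM.

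Pde5a, the cGMP phosphodiesterase that sildenafil blocks, repeated the pattern seen for Adcy4. Its TPM was 5.71 and 3.55, but its counts were 551 and 490. Pde5a-203, a non-coding transcript of 418 bases, held 2.07 TPM on 14.4 counts in replicate 1 and 0.16 TPM on 1.03 counts in replicate 2. The gap in TPM thus lies largely on a transcript with few counts.

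Pde4a, Pde4b and Pde4d each make long and short enzymes from different start sites. Long forms carry a pair of upstream conserved regions, through which PKA phosphorylation activates the enzyme, and short forms lack the first of them. Transcript shares were taken from the FASTQ-based table and set beside the alignment-based one. Pde4a was carried by 2 transcripts. Pde4a-202, with a coding sequence of 2532 bases, held 54.4% and 55.7%, and Pde4a-201, with 1830 bases, held 44.3% and 42.8%. The alignment-based table gave 54.9% and 55.4% for the first and 42.1% and 42.7% for the second, so both libraries and both routes gave the long form the larger share.

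Pde4b was led by Pde4b-207, a long form of 2163 coding bases, at 43.6% and 38.7%, with 51% and 50.4% by alignment. The short Pde4b-202, of 1509 coding bases, followed at 23.7% and 19.1%, with 22.7% and 18.9% by alignment. Of the rest, Pde4b-213, annotated to nonsense-mediated decay, held 7.73% and 8.82%, and Pde4b-206 held 6.32% and 5.97%.

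Pde4d was led by a short form. Pde4d-207, of 1752 coding bases, held 44.1% and 41.6%, and 43.3% and 41.7% by alignment. Its long forms were assigned in different ways by library and by route. Pde4d-220 held 12.2% in replicate 1 and 0.0384% in replicate 2, Pde4d-208 held 5.86% and 14.9%, and Pde4d-218, whose coding start is annotated as incomplete, 11.9% and 14.1%. By alignment Pde4d-220 was at 0 in both libraries, Pde4d-208 at 5.11% and 9.06% and Pde4d-218 at 3.93% and 1.98%, while Pde4d-205 took 15.02% and 18.6% against 0.000511% and 0 in the FASTQ-based table. The short Pde4d-203 held 6.04% and 9.60%, and the non-coding Pde4d-214 and Pde4d-210 held 7.42% and 6.84%, and 5.79% and 5.54%.

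Grouping transcripts by coding length removed most of that disagreement. Protein-coding transcripts that reach the gene's last coding base were called long with at least 1900 coding bases and short below that, a boundary chosen after the values were seen. The classes rest on coding length alone, and the conserved regions that each transcript encodes were not compared. In Pde4d the short class held 50.1% and 51.2%, and 51.8% and 51.6% by alignment, and the long class 31.6% and 30.5%, and 31.9% and 34.6%. The long class led in Pde4a, at 55.0% ± 0.917 against 43.6% ± 1.04 for the short class. It led in Pde4b too, at 45.9% ± 3.75 against 27.2% ± 1.20. The assigned balance of long to short forms was therefore opposite in Pde4d, in both libraries and by both routes. The routes share an annotation, in which the leading transcript of each of these genes ends further downstream than all its others. Pde4d-207 ends at 109953461, Pde4b-207 at 102607259 and Pde4a-202 at 21213248. The next ends lie at 109951474, 102605861 and 21211627. Reads from beyond those ends can be assigned to the leading transcript alone, and their part in the balance was not tested.

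**Figure D3:**
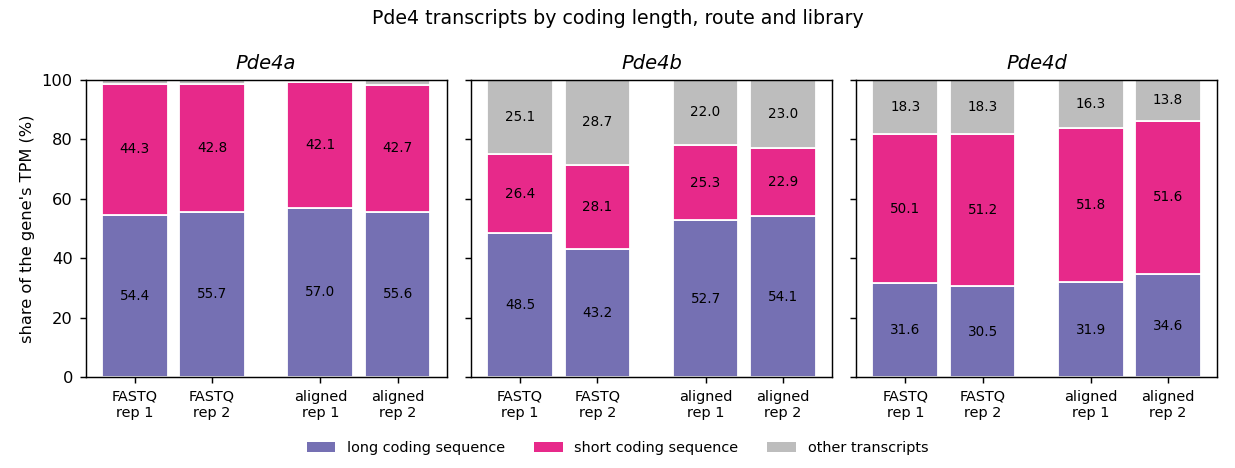
Share of each gene's TPM on long, short and other transcripts, for the FASTQ-based and the alignment-based table and each library. The short class exceeds the long class in all 4 bars of Pde4d (50.1% to 51.8%) and is below it in all 4 bars of Pde4a and Pde4b.

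The first 60 coding bases of a long and a short form of Pde4a, Pde4b and Pde4d are printed, since this is the part by which long and short Pde4 enzymes differ. They were chosen as coding transcripts with a mean FASTQ-based share of at least 10% and an annotated coding start, which Pde4d-208 reached through replicate 2 only and not by alignment. They come from GENCODE M21 transcripts on mm10. Capitals mark bases that are not in the coding sequence of the other form shown for that gene, and lower case marks shared ones. All lie on the plus strand. The coding sequences start at 21165928 and 21197113 on chromosome 9 for Pde4a-202 and Pde4a-201, at 102255221 and 102590154 on chromosome 4 for Pde4b-207 and Pde4b-202, and at 109116641 and 109903441 on chromosome 13 for Pde4d-208 and Pde4d-207.
Pde4a-202, long: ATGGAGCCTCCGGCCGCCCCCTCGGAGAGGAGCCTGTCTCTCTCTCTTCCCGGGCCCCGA
Pde4a-201, short: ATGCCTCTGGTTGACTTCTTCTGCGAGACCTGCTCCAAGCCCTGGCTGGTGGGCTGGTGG
Pde4b-207, long: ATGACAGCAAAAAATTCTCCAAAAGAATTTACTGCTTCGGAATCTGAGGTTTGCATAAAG
Pde4b-202, short: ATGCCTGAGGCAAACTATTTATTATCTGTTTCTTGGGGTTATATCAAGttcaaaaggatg
Pde4d-208, long: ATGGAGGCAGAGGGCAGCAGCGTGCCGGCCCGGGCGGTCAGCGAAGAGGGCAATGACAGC
Pde4d-207, short: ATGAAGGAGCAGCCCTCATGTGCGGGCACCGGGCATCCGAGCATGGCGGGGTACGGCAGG

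Each form begins with a stretch of its own. It runs 768 coding bases in Pde4a-202 against 66 in Pde4a-201, and 702 in Pde4b-207 against 48 in Pde4b-202, where the change to lower case falls inside the printed stretch. In Pde4d it runs 793 bases in Pde4d-208 and 136 in Pde4d-207.

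AKAPs summed to 357 and 356 TPM, and 11 of 14 were detected. Akap11 (chromosome 14, 78492246 to 78536808), an anchor that also binds glycogen synthase kinase 3, was at 72.6 and 70.5 TPM. Akap6 (chromosome 12, 52699383 to 53155599), the anchor of the nuclear envelope, was at 62.6 and 65.2 TPM. Together they held 38.0% ± 0.173 of AKAP TPM. Both stood above the other anchors in each library of this table. In the FASTQ-based table Akap8, at 83.7 and 75.9 TPM, was level with Akap6, at 83.7 and 86.8, in replicate 1.

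Akap5, the postsynaptic anchor that brings PKA and calcineurin to glutamate receptors, was lower at 23.6 and 24.6 TPM. The log2 ratio of Akap5 over Akap6 was -1.41 in both libraries. Akap9, an anchor of the Golgi and centrosome, was at 37.1 and 36.5 TPM, and Akap8, a nuclear anchor, at 39.8 and 41.5. Akap7, an anchor of ion channels, was at 31.6 and 28.3 TPM. Akap13, which is also a guanine nucleotide exchange factor, was at 25.6 and 22.9 TPM, and its range overlapped that of Akap5.

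Akap1, the mitochondrial anchor, was at 19.8 and 20.1 TPM, and Akap2, an anchor at the cell membrane, at 18.3 and 21.2 TPM. Akap2 shares 6891 exonic bases on the same strand with Pakap, so the split of reads between these genes is uncertain. Akap12, a membrane scaffold also called gravin, was at 14.5 and 12.8 TPM, and Akap10, which binds both regulatory types, at 11.8 and 12.4 TPM. The sperm anchors Akap3 and Akap4 and the cilium-associated Akap14 were at 0 to 0.09 TPM. Akap4 had 0 counts in both libraries, which allows up to 0.0936 and 0.101 counts per 1000000 (3 counts of each total, counting error only).

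Akap8 was assigned mainly to transcripts not annotated as protein-coding by both routes, and Akap7 in the FASTQ-based table only. In the FASTQ-based table Akap7-204, a processed transcript with no coding sequence, held 62.0% and 56.1% of the gene, and in the alignment-based table it held 1.36% and 0%. There Akap7-203, a protein-coding transcript with a coding sequence of 243 bases, took 72.8% and 69.0%. Transcripts not annotated as protein-coding, which include those annotated to nonsense-mediated decay, held 65.2% and 66.1% of Akap8 in the FASTQ-based table. They held 69.5% and 63.3% in the other, so for Akap8 the routes gave like shares. Pde7a was similar, at 63.4% and 65.2%, and 57.2% and 54.7% by alignment.

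Over the 44 detected genes the median share on transcripts not annotated as protein-coding was 13.6% in the FASTQ-based table and 6.90% in the alignment-based one. The libraries are of total RNA, and unspliced RNA was not separated here. Of 43 detected genes with more than 1 transcript, 30 had the same leading transcript in both libraries and both routes. Adcy1, Adcy5 and Prkaca are examples with little room for disagreement, since Adcy1-201 held at least 93.8%, Adcy5-201 at least 94.8% and Prkaca-201 at least 97.0% of the gene in each of the 4 tables.

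The 2 libraries were then compared by a two-sided exact binomial test on expected counts with Benjamini-Hochberg adjustment over all 12879 genes that averaged 100 or more counts. With 1 library on each side, it sets the reads of 2 libraries against each other and not conditions. At an adjusted p under 0.05 it called 9 of the 43 members tested, against 11.8% of all genes tested. Of these, 6 were lower in replicate 2, a call that 5.47% of all genes got, and 3 were higher, a call that 6.34% got. None passed 2-fold, as 0.303% of all genes did, and 13 of 43 had an unadjusted p under 0.05, against 23% of all genes tested. Many of the members tested have high counts: at a mean of 1000 or more counts, 8 of 30 members were called, against 17.6% of all such genes. The median absolute log2 ratio was 0.06 over the members tested and 0.07 over all genes tested.

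The called members moved by less than 0.2 on the log2 scale. Pde2a had 7010 and 7082 counts, a log2 ratio of 0.13 of replicate 2 over replicate 1 after scaling (adjusted p = 5.12e-06). Pde2a shares 3955 exonic bases on the same strand with Gm45837, which had 67.0 and 0 counts. Adcy3 had 1913 and 1958 counts (log2 ratio 0.15, adjusted p = 0.0183), and its exons overlap 1380 bases of Cenpo on the opposite strand. Akap6 had 13462 and 12889 counts (log2 ratio 0.05, adjusted p = 0.0410). These were the 3 members called higher.

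Both PKA genes that were called were lower in replicate 2. Prkacb had 8094 and 7064 counts (log2 ratio -0.08, adjusted p = 0.00598), and Prkar2a 2525 and 2120 (log2 ratio -0.14, adjusted p = 0.0135). Among AKAPs, Akap12 had 1912 and 1575 counts (log2 ratio -0.17, adjusted p = 0.00925). Akap7 had 1290 and 1058 (log2 ratio -0.17, adjusted p = 0.0374) and Akap8 2278 and 1923 (log2 ratio -0.13, adjusted p = 0.0322). For Akap8 the TPM was higher in replicate 2 while the counts were lower. Pde7a had 1040 and 846 counts (log2 ratio -0.18, adjusted p = 0.0488), and Adcy8, with 876 and 922, was not called (log2 ratio 0.19, adjusted p = 0.0516).

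Of these calls Akap6 was lost (adjusted p = 0.0517) when every gene averaging 10 or more counts was tested. Pde7a was lost under that filter (adjusted p = 0.0613) and with FASTQ-based counts (adjusted p = 0.154). The differences move together with the sex-linked genes and with choroid plexus, myelin and red blood cell markers, whose values are given above. Shifts as small as those of the members were called in other markers too. Camk2a of excitatory neurons (log2 ratio 0.17) and the astrocyte genes Gfap (0.18) and Aqp4 (0.15) were higher in replicate 2. Pdgfra of oligodendrocyte precursors (-0.15) and the meningeal Col1a1 (-0.18) and Col1a2 (-0.22) were lower. Microglial genes were called higher for 2 of 3, and no interneuron or mural cell gene was called. The part of these cell types in the calls was not tested.

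**Figure D4:**
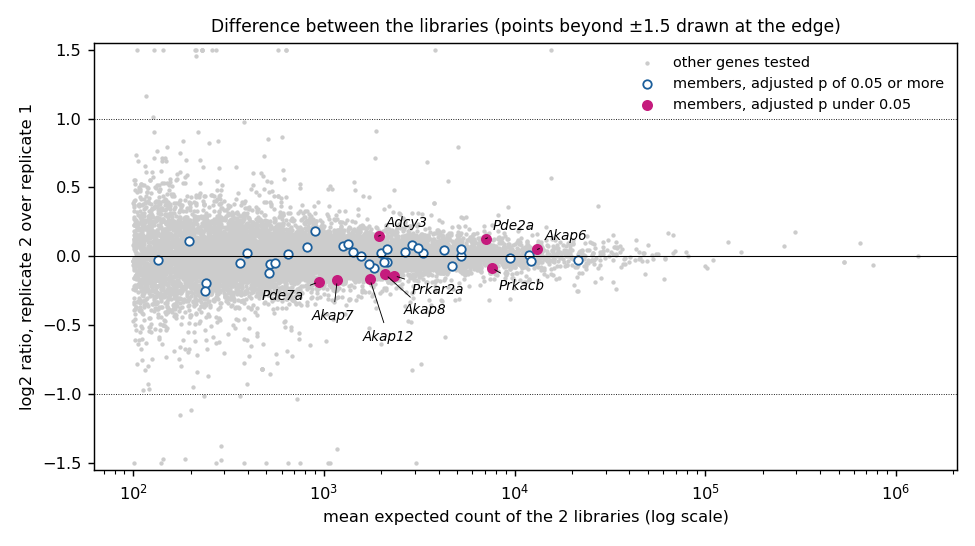
Log2 ratio of replicate 2 over replicate 1 against the mean expected count (log axis) for the 12879 genes tested, with members as open circles, or filled and named where the adjusted p was under 0.05. The 9 called members lie between -0.18 and 0.15, inside the dotted lines at 2-fold.

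The rest of the pathway was read from a list of 34 genes chosen by role, of which 33 were detected and tested. The same exact binomial test called 5 higher and 3 lower in replicate 2, where 6.34% and 5.47% of all genes tested were called, and none at 2-fold, against 0.303%. Among G proteins, Gnas, the stimulatory alpha subunit, was at 818 and 805.5 TPM and was not called. Gnal, its olfactory and striatal relative, was at 59.96 and 57.6 TPM and was lower in counts (log2 ratio -0.12, adjusted p = 0.000182). Gnao1, the most abundant alpha subunit of the inhibitory class in this list, was at 410.9 and 422.9 TPM and was higher in counts (log2 ratio 0.05, adjusted p = 0.00377). Gnai1, Gnai2, Gnai3 and Gnaz were at 24.96 to 113.7 TPM and were not called.

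Of 3 PKA inhibitors, Pkia had 10739 and 8922 counts and was lower in replicate 2 (log2 ratio -0.15, adjusted p = 6.24e-12). Of 8 other cAMP receptors, Rapgef4, the neuronal exchange factor activated by cAMP, was highest at 68.1 and 68.0 TPM. Rapgef3, its relative in vessels and other cells, was lower in replicate 2, with 911 and 714 counts (log2 ratio -0.24, adjusted p = 0.0118). The cyclic nucleotide-gated pacemaker channels were led by Hcn2 at 37.1 and 37.9 TPM, and Hcn2, Hcn3 and Hcn4 were not called. Popdc2 was at 0.19 and 0.22 TPM, the only gene of the list under 1 TPM.

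None of the 8 nuclear targets (Creb1, Crem, Atf1, Crtc1, Crtc2, Crtc3, Crebbp, Ep300) was called. Creb1 itself was at 21.3 and 22.4 TPM, and Crtc1, its calcium- and cAMP-regulated coactivator, was the highest at 46.1 and 49.8 TPM. On the phosphatase side, the calcineurin genes Ppp3ca (log2 ratio 0.09, adjusted p = 1.47e-11) and Ppp3r1 (log2 ratio 0.11, adjusted p = 7.75e-08) were higher in replicate 2. Ppp1r1b, the PKA-regulated phosphatase inhibitor best known from the striatum, was higher too, with 269 and 328 counts (log2 ratio 0.40, adjusted p = 0.00998), and Ppp1r1a and Ppp3cb were not called. Of the calmodulin genes, Calm3 was higher (log2 ratio 0.05, adjusted p = 8.22e-06), and Calm2 was not called.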

How the data were processed

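Total RNA-seq libraries of 1 group (n = 2) were used. The authors deposited, per library, alignment-based gene and transcript tables with expected counts (not normalized) and TPM, and a FASTQ-based transcript table with estimated counts and TPM, on mm10 with GENCODE M21, per the deposited descriptions. No tool is given in the sources used here; RSEM and kallisto write columns of these names. Rows that name no annotated gene (26248 numbered rows and 97 spike-in rows) took 0.358% and 0.359% of counts and stayed out.

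Levels are the deposited alignment-based TPM of 55536 genes, and Pde4 shares the FASTQ-based TPM. Expected counts were rounded, scaled with TMM (edgeR 4.0.16, R 4.3.3) and compared by the exact binomial test (scipy 1.17.1), adjusted over all genes tested, with a prior count of 0.5 for log2 ratios. The test was checked on counts simulated with counting error only, a check that does not cover spread between animals. Every member was named; members with a mean TPM of at least 5 and Pde4 transcripts of at least 5% were given in both libraries. Members and lists were chosen with earlier results of these data known. P-values measure only the spread of reads between these 2 samples. Whether counting used the strand is unknown here, so antisense partners may share reads. A few listed genes are not reported here by name, while counts over a list cover the whole list. Promoters came from the RefSeq table of GRCm38.p6. Alternatives were DESeq2 1.42.0 size factors, other filters, pseudocounts, the other route and single libraries.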

Additional observations from a re-analysis of the deposited data

How the results depend on the processing

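Detection (44 members) held at a TPM threshold of 0.5 and in either library alone, and 45 were detected from FASTQ-based TPM. The log2 ratio of calcium-stimulated over calcium-inhibited cyclases reversed to -0.78 without Adcy1, an alternative chosen after seeing the data, and was 2.06 from expected counts not divided by length. Expected counts, also added after seeing the data, gave -0.99 for PKA catalytic over regulatory, -2.40 for type II over type I and 30.8% for the cAMP-specific share. FASTQ-based TPM gave -0.82 and -2.60 for the PKA ratios. The cAMP-specific share was 36.9% without Pde6d. The share of Pde4b-207 was 50.7% from alignment-based TPM and 48.5% among protein-coding transcripts only, where that of Pde4d-207 was 50.9%; the denominators differ by construction. For the other moves the cause was not tested.

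Leaving out a replicate gave 1.19 to 1.28, -0.91 to -0.90, -2.80 to -2.67 and 33.8% to 34.6% for these 4 values. It gave 54.4% to 55.7% for Pde4a-202, 38.7% to 43.6% for Pde4b-207 and 41.6% to 44.1% for Pde4d-207. For Pde4c-201, the lead on average at 50.02% from 35.0 and 22.8 FASTQ-based counts per gene, it gave 0.0309% to 100%, so no lead can be named at this depth. Of the members tested, 9 of 43 were called with DESeq2 size factors (11.8% of all genes), 7 of 45 with a mean count of at least 10 (8.77%) and 8 of 43 with FASTQ-based counts (11.9%), all among the 9 called. No paired analysis was possible because there is only 1 group. In the FASTQ-based table Pde6a had 84.4 and 88.7 estimated counts against 2 and 7 by alignment, 97.0% and 97.1% of its FASTQ-based TPM on Pde6a-202; 3.88% of 14218 protein-coding genes lay as far apart as 2-fold between the routes after centring.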
